A study of Homo sapiens with 12 samples.

Results

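The genes of the integrated stress response and the unfolded protein response were read in parental hTERT-RPE1 cells after knockdown of CENPF, FOXM1 or both. The 42 genes were taken by symbol from the authors' edgeR tables, and their identifiers were then looked up in the normalized count table of 14862 genes. All 42 were found, and all 42 passed the filter on low values (10 or more normalized counts in 3 or more libraries), as did 14857 genes in all. They were sorted by role into 13 ATF4 amino acid genes, 12 stress factors and effectors, 4 genes of endoplasmic reticulum (ER) stress sensing (the sensors EIF2AK3, ERN1 and ATF6, with XBP1, the factor that ERN1 activates; called the sensor list) and 13 ER chaperone genes, the last including genes of ER quality control. hTERT-RPE1 is a human retinal pigment epithelial line immortalized with the telomerase gene.

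PolyA RNA was sequenced in 4 groups of 3 libraries, numbered 1 to 3 in the labels: siNeg, the negative-control siRNA; siCENPF and siFOXM1, each aimed at the gene in its name; and siCENPF+siFOXM1, the pair together, called both siRNAs here. Transfection with 20 nM siRNA ran overnight and cells were collected at 48 hours. The sources do not say if the pair was given at that dose per siRNA or combined, which bears on every value of that group and on the interaction. CENPF encodes a kinetochore protein, FOXM1 a transcription factor of genes expressed in G2 and M phase, and the series asks what CENPF adds to the control of centromere and kinetochore genes by FOXM1. All 4 groups are the same line and all were transfected, so an untransfected state was not analysed here. The labels do not say that replicates were separate cultures, and p-values then measure only the spread between these samples, which may be technical.

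The integrated stress response begins with kinases that phosphorylate the translation factor eIF2. Most protein synthesis then falls while translation of ATF4 mRNA rises, and the ATF4 protein switches on genes for amino acid synthesis and import, tRNA charging and redox balance. The unfolded protein response starts in the ER membrane, where PERK (EIF2AK3), IRE1 (ERN1) and ATF6 sense unfolded proteins. PERK is itself an eIF2 kinase, IRE1 splices XBP1 mRNA into the form that encodes an active factor, and ATF6 and spliced XBP1 switch on chaperones and degradation genes. ATF4 protein, eIF2 phosphorylation and XBP1 splicing are not read by the gene-level values used here.

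The results contrast the amino acid genes with the ER chaperone genes, and the promoter windows printed here are shown because these lists hold different response elements. RefSeq promoters of 38 of the 42 genes were matched by symbol (build GRCh38.p14, 250 bases before to 50 bases after the start). Only 1 start per gene was searched. For SLC3A2 and PHGDH that start lies well inside the gene's span given below, and their other starts were not searched. The C/EBP-ATF element (TGATGNAA, either strand) was present in 3 of 10 amino acid genes, 2 of 11 factors and effectors, 0 of 4 genes of the sensor list and 1 of 13 ER chaperone genes, against 3.67% of 27305 promoters. The ER stress element, 19 letters that open with CCAAT and close with CCACG, was present in 5 of 13 ER chaperone genes and in 1 of 4 genes of the sensor list, XBP1, against 0.0806% of all promoters. Its second form, ATTGG and CCACG with 1 base of any kind between, was present in 3 of 13 ER chaperone genes, against 0.0549%. The core TGACGTG was present in 1 member, HYOU1, where it overlaps a copy of the second form, against 2.0% of all promoters. The ER stress element and its second form were in none of the matched amino acid genes or factors. These matches describe letters only and are not shown to be bound. In the windows, capitals mark the motif, the strand printed is the one on which it reads as spelled above, and positions count from the start site.
ASNS (chr7:97872458-97872487, minus strand, C/EBP-ATF element at -68 to -61): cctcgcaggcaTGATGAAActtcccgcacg
SLC3A2 (chr11:62881719-62881748, minus strand, C/EBP-ATF element at 37 to 44): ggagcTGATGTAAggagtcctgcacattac
ATF3 (chr1:212565205-212565234, plus strand, C/EBP-ATF element at -191 to -184): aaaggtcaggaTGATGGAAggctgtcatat
CHAC1 (chr15:40953251-40953280, minus strand, C/EBP-ATF element at -209 to -202): cctggcaggagTGATGCAAcggcaggggag
HERPUD1 (chr16:56931955-56931984, minus strand, C/EBP-ATF element at -176 to -169): tgggcacgggcTGATGCAAcccgccgcgtc
HERPUD1 (chr16:56932015-56932044, plus strand, second form at -117 to -107): ccggacgccgATTGGGCCACGttgggagag
XBP1 (chr22:28800598-28800627, minus strand, ER stress element at -52 to -34): cgctggCCAATCGCGGAGGGCCACGaccgt
HSPA5 (chr9:125241386-125241415, minus strand, ER stress element at -66 to -48): ccttcaCCAATCGGCGGCCTCCACGacggg
HSP90B1 (chr12:103930210-103930239, plus strand, ER stress element at -194 to -176): ccctgaCCAATCGGAAGGAGCCACGcttcg
CALR (chr19:12938378-12938407, minus strand, ER stress element at -225 to -207): accgaCCAATGATGGTCGACCACGcgtggg
SDF2L1 (chr22:21642104-21642133, minus strand, second form at -188 to -178): agggttttgATTGGTCCACGcttccgagga
HYOU1 (chr11:119057371-119057400, plus strand, second form at -185 to -175): cggcctgggATTGGACCACGtcacggggcc

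The targeted transcripts were low in every library given their siRNA. CENPF stood at 10.8% of its siNeg mean with siCENPF and 15.8% with both siRNAs, and FOXM1 at 15.2% with siFOXM1 and 17.7% with both. Reads counted in genes ran from 13671250 to 35411230 per library, and siNeg 3 and siCENPF 3 (35411230 and 31302177) were the deepest. Of the markers of differentiated retinal pigment epithelium, RPE65 and TYR stood at 0 FPKM in every library and RLBP1 reached at most 0.0371, while PMEL ran from 0.52 to 0.692. MITF ran from 0.721 to 1.28 FPKM, OTX2 from 0.159 to 0.492 and SERPINF1 from 0.0648 to 0.193. BEST1 ran from 26.9 to 62.4 FPKM, but its exons share 1267 bases with FTH1 on the other strand. Of the epithelial keratins KRT18 (27.2 to 41.6) and KRT8 (14.9 to 25.5) were present, while KRT19 reached at most 0.0379 FPKM. In bulk samples such as these, fewer cells of a kind and less RNA per cell cannot be told apart.

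Levels between genes were compared per length, as FPKM (reads scaled to gene length and library depth), with medians over the 12 libraries. The ER chaperones led. HSPA5 (BiP, the main HSP70 of the ER) had a median of 280 FPKM, CALR (calreticulin, a lectin chaperone) 206, HSP90B1 (GRP94, the HSP90 of the ER) 116, PDIA4 (a disulfide isomerase) 60.5 and CANX (calnexin, the membrane-bound lectin chaperone) 43.4. ATF4 followed at a median of 36.5, and of the amino acid genes SLC7A5 had 27.6, PSAT1 24.3 and GARS 20.0 FPKM. Library ranges of HSPA5 (198 to 465) and CALR (175 to 218) overlapped, as did those of CANX (38.7 to 50.4) and ATF4 (32.7 to 40.6). The range of ATF4 also overlapped those of SLC7A5 (11.2 to 51.8) and PSAT1 (17.1 to 40.9), and these overlapped that of GARS (13.2 to 27.5), so the order of these neighbours is not resolved. The lowest members were ATF3 at 0.734, CTH at 0.336, ERN1 at 0.235 and CHAC1 at 0.183 FPKM. No member was listed at 0 in any library.

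For most of these genes the libraries differed more by the replicate number in the labels than by siRNA group. With number as a term beside the groups, limma's F test called 38 of 42 members at an adjusted p under 0.05, where the share of all genes called was 46.4%. Of the 39 members with a mean of at least 100 normalized counts 36 were called, against 54.8% of all such genes. PSPH, ATF4, ERN1 and ATF6 did not pass. The mean of the libraries numbered 1 was the highest of the 3 numbers for 39 of 42 members, against 33.6% of all genes. The exceptions were PSPH, ATF5 and DDIT4. The range between number means exceeded the range between group means for 36 of 42 members, against 58.7% of all genes.

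Libraries numbered 2 differed most in the amino acid genes, and those numbered 3 in the factors and effectors. Number 2 stood below number 1 by a median log2 of -0.91 over the 13 amino acid genes, -0.58 over the factors and effectors, -0.37 over the ER chaperone genes and -0.28 over the sensor list, against 0.00 over all genes. Number 3 stood below number 1 by -0.39, -0.55, -0.27 and -0.17 in the same order. ATF3, an early stress factor of the ATF/CREB family, had 411, 67.1 and 183 normalized counts with siNeg and 641, 64.0 and 209 with siCENPF. It had 405, 50.6 and 160.5 with siFOXM1 and 345, 55.5 and 196 with both siRNAs. Its 4 libraries numbered 2 were the lowest and its 4 libraries numbered 1 the highest, while the groups overlapped. SLC7A11, the cystine and glutamate exchanger, ran from 500.3 (siFOXM1 2) to 3954 (siCENPF 1), a 7.9-fold range. CHAC1, a glutathione-degrading enzyme, had 54.9, 23.3 and 23.7 normalized counts with siNeg and 86.3, 19.5 and 17.2 with siCENPF. Libraries of siFOXM1 had 51.8, 14.5 and 24.3, and those of both siRNAs 32.6, 11.5 and 25.7. ASNS, which makes asparagine, had 1020.5, 372 and 533 normalized counts with siNeg and 1319.6, 403 and 491 with siCENPF. Its values were 945, 258 and 509 with siFOXM1 and 901, 373 and 497 with both siRNAs. In both genes every number 1 library was above every number 2 library.

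DDIT3, which encodes the factor CHOP, had 298, 90.8 and 174 normalized counts with siNeg and 329, 123 and 196 with siCENPF. Values of 228, 137 and 173 with siFOXM1 and 257, 131 and 173 with both siRNAs followed. Its libraries numbered 2 were the lowest in each group. Its exons share 355 bases with MARS on the other strand, and MARS averaged 3036 normalized counts, so how far its counts are its own depends on a strand setting that the sources used here do not give. HERPUD1, an ER membrane protein of degradation, had 1577, 586 and 812 normalized counts with siNeg and 1838, 806 and 873 with siCENPF. In siFOXM1 libraries it had 1339, 669 and 891, and with both siRNAs 1377, 679 and 962. It was highest in number 1 in each group. DDIT4, an inhibitor of mTORC1 signalling, went the other way, with number 2 above number 1 by 0.84 (log2) and number 3 below it by -0.59. ATF4 itself had 3795, 3239.5 and 3388 normalized counts with siNeg and 4291, 3884 and 3543 with siCENPF. It had 3754, 3819 and 3717 with siFOXM1 and 3752, 3678 and 3900.0 with both siRNAs. It spanned only 1.32-fold over the 12 libraries, and its number 2 and 3 means lay -0.09 and -0.10 (log2) from number 1 (adjusted p = 0.168).

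The remaining members with no siRNA call were read by their ranges over the 12 libraries. The tRNA synthetase genes WARS, AARS and GARS ran from 1504 to 4075, 2258 to 2838 and 2266 to 4909 normalized counts, and the mitochondrial folate enzymes MTHFD2 and SHMT2 from 2026 to 3232 and 2603 to 3445. CTH, which makes cysteine, ran from 17.9 to 84.6. Among the factors, CEBPB ran from 886 to 1453, CEBPG, a partner of ATF4, from 409 to 749, NUPR1, a small chromatin-associated stress protein, from 391 to 799, and ATF5, which like ATF4 is controlled at translation, from 896 to 1265. ERN1 ran from 31.9 to 79.0. Among the ER genes DNAJC3, the eIF2 kinase inhibitor p58IPK, ran from 1526 to 2313, SEL1L, of ER-associated degradation, from 2043 to 3034, PDIA4 from 3845 to 5192 and MANF, a secreted ER resident, from 1133 to 2125. The library siCENPF 1 was the highest of the 12 for 31 of the 42 members, against 14% of all genes. Without it, 5 of the 7 calls after siCENPF that are described further on remained, and HSPA5 and EIF2AK3 were lost.

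What the number stands for, such as a day or a preparation, is not given. Other measures moved with it: mitochondrially encoded genes took 2.68% to 2.93% of reads in number 1 libraries, 2.25% to 2.42% in number 2 and 2.05% to 2.46% in number 3. Their part in the result was not tested. Same-numbered libraries deviated together from their group means in all 18 pairs (correlation across genes 0.272 to 0.639), so each siRNA is set against siNeg below both without the number and with it as a block, and within each number.

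**Figure D1:**
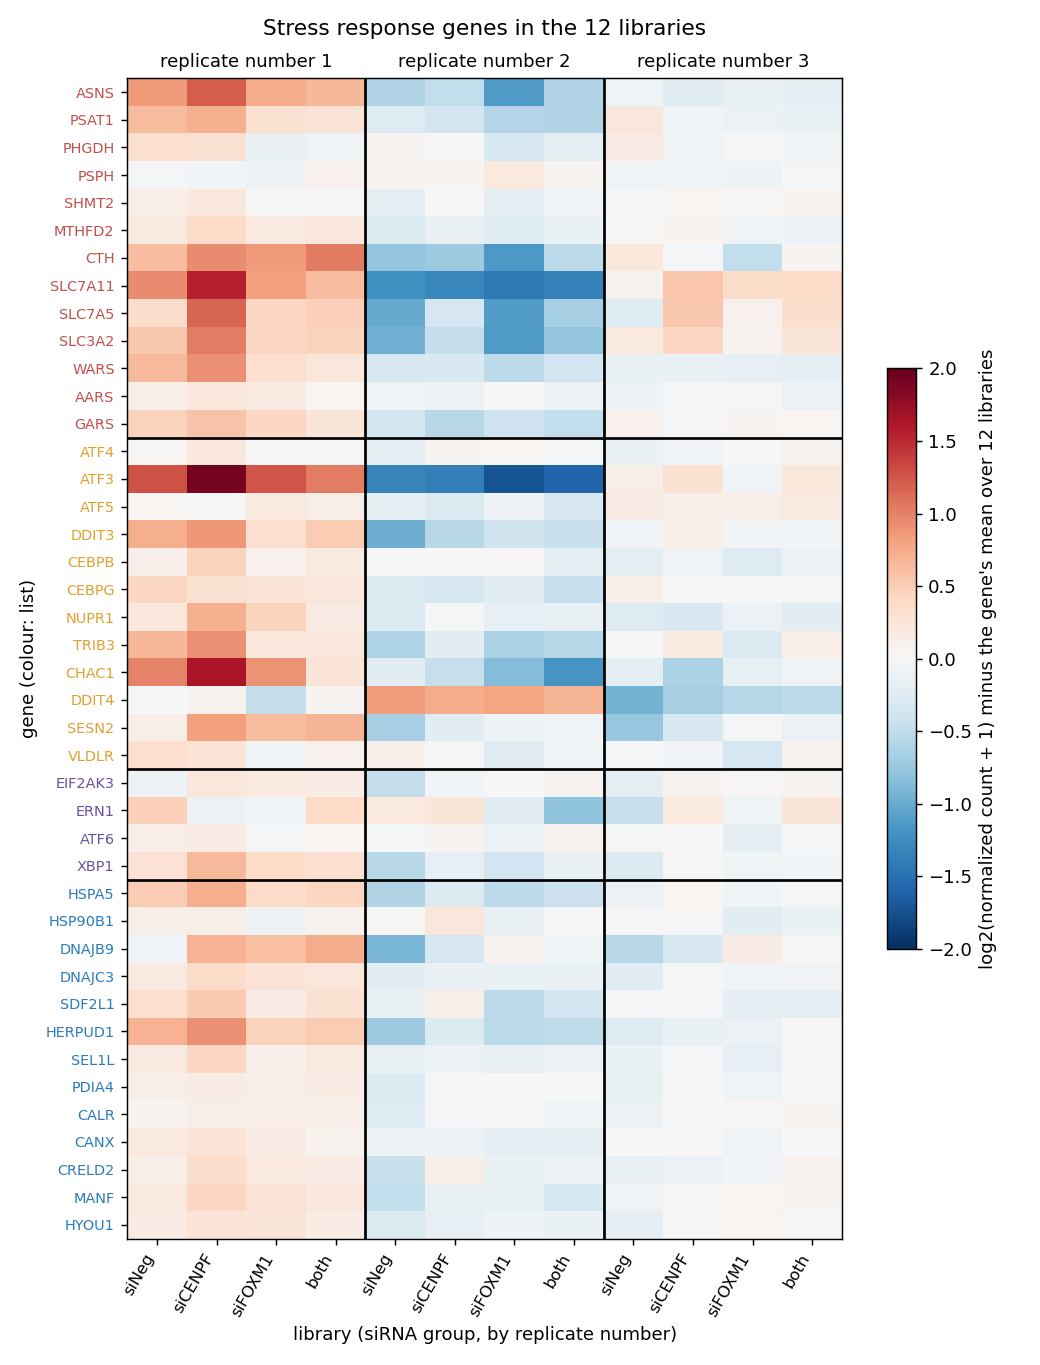
Each cell is a library's log2(normalized count + 1) minus that gene's mean over the 12 libraries, with libraries on the horizontal axis ordered by replicate number and then siRNA group, and the 42 genes on the vertical axis coloured by list. Most genes are red in the 4 libraries numbered 1 and many are blue in those numbered 2, with ATF3 and SLC7A11 differing most between these numbers and DDIT4 opposite.

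**Figure D2:**
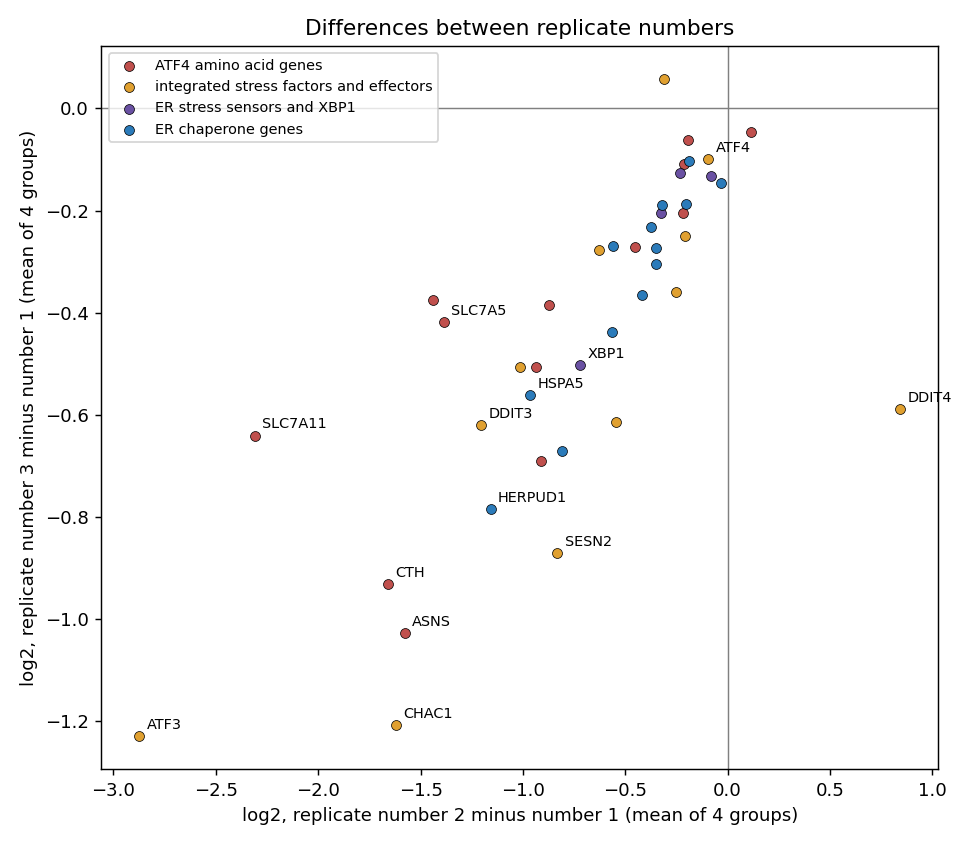
Each point is 1 of the 42 genes, placed by the log2 difference of replicate number 2 from number 1 (horizontal axis) and of number 3 from number 1 (vertical axis), each a mean over the 4 groups. Points crowd into the lower left, where ATF3 lies at -2.87 and -1.23, and ATF4 lies near the origin.

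Without the block, limma called 0 of 42 members in each of the 7 comparisons, and edgeR and DESeq2 on recovered reads also called 0. The shares of all genes called were 0.337% for siCENPF, 0.66% for siFOXM1 and 0.458% for both siRNAs against siNeg. They were 0.458% for siFOXM1 against siCENPF, 0.0808% and 0.00673% for both siRNAs against siCENPF and siFOXM1, and 0% for the interaction. At an unadjusted p under 0.05, 1, 5, 3, 3, 0, 0 and 0 members passed in the same order (all genes: 5.53%, 7.77%, 7.36%, 6.87%, 2.95%, 1.97% and 2.38%). Calls of members that follow are therefore calls of the limma fit with the replicate block unless edgeR is named, and each is given with its standard error (SE) and adjusted p from that fit. Values per library are normalized counts in the order of numbers 1, 2 and 3, and fold changes are on the log2(normalized count + 1) scale.

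After siCENPF, 7 members rose and 0 fell with the block, where 4.52% of all genes were called (2.86% rose and 1.66% fell). The 7 were the amino acid transporter pair SLC7A5 and SLC3A2, SESN2, the sensor EIF2AK3, the factor XBP1, and the ER genes HSPA5 and DNAJB9. All 13 ER chaperone genes and all 4 genes of the sensor list had fold changes above 0, as did 9 of 13 amino acid genes and 8 of 12 factors, against 49.8% of all genes. List medians were 0.15, 0.19, 0.09 and 0.17 (log2) in that order, against 0.00 over all genes. The medians of the amino acid genes (0.20, 0.02 and 0.03 in numbers 1, 2 and 3) and of the factors (0.22, 0.01 and 0.09) were highest in number 1, while those of the ER chaperone genes were 0.20, 0.25 and 0.10 and of the sensor list 0.17, 0.24 and 0.27. Within numbers, 24 of 42 members were higher than siNeg in all 3 pairs, against 17.5% of all genes, and 4 were lower in all 3, against 17.6%. Of the ER chaperone genes, siNeg 2 was the lowest of the 12 libraries for HSPA5, DNAJB9, DNAJC3, HERPUD1, PDIA4, CALR, CRELD2, MANF and HYOU1. Of the sensor list it was the lowest for EIF2AK3 and XBP1. The others in these lists were lowest in other libraries, and the share of all genes lowest in siNeg 2 was not computed. Without the block the adjusted p of the 7 ran from 0.636 to 0.9997.

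SLC7A5 and SLC3A2 encode the light and heavy chains of the LAT1 transporter, which imports large neutral amino acids such as leucine. SLC7A5 (ENSG00000103257, hg38 chromosome 16, 87830023 to 87869488, minus strand) had 5384, 2102 and 3575 normalized counts with siNeg and 9521, 3337 and 6157 with siCENPF. Libraries of siFOXM1 had 5645, 1944 and 4487, and those of both siRNAs 5868, 2657 and 5393. SLC7A5 rose by 0.76 (log2) with siCENPF (SE 0.091, adjusted p = 0.00023). Within each number siCENPF had the highest value of the 4 groups, yet siCENPF 2 (3337) lay below siNeg 1 (5384), and the groups overlapped. SLC3A2 (ENSG00000168003, hg38 chromosome 11, 62856102 to 62888875, plus strand) had 3868, 1367 and 3029 normalized counts with siNeg and 5363, 1909 and 3539 with siCENPF. Its values were 3531, 1212 and 2771 with siFOXM1 and 3598, 1539 and 3134 with both siRNAs. SLC3A2 rose by 0.39 (log2) with siCENPF (SE 0.064, adjusted p = 0.000237). It was again highest with siCENPF within each number. Both calls held when any of the 12 libraries was left out, with adjusted p at most 0.0243 and 0.00542. Exons of SLC7A5 share 271 bases with AC126696.2 on the other strand (mean 250.3 normalized counts).

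Of the factors and effectors 1 of 12 passed. SESN2, a sestrin that senses leucine and restrains mTORC1 (ENSG00000130766, hg38 chromosome 1, 28259527 to 28282491, plus strand), had 471, 272 and 255 normalized counts with siNeg and 770.4, 374 and 349 with siCENPF. Values of 676, 405 and 428 with siFOXM1 and 699, 413 and 399 with both siRNAs followed. SESN2 rose by 0.54 (log2) with siCENPF (SE 0.092, adjusted p = 0.000404). In each number siNeg was the lowest of the 4 groups, and the call held in all 12 runs that left out a library (adjusted p at most 0.0119). ATF4 itself did not pass (log2 0.17, SE 0.058, adjusted p = 0.105). Neither did ATF3 (log2 0.25, SE 0.14, adjusted p = 0.388), DDIT3 (log2 0.25, SE 0.15, adjusted p = 0.411) or CHAC1 (log2 -0.01, SE 0.32, adjusted p = 0.99), whose within-number differences ran from -0.44 in number 3 to 0.65 in number 1. TRIB3, a pseudokinase that ATF4 and CHOP induce, had 756, 313 and 471 normalized counts with siNeg and 906, 413 and 543 with siCENPF. In siFOXM1 libraries it had 559, 306 and 393, and with both siRNAs 558, 321 and 522. It was highest with siCENPF in each number and also missed the threshold (log2 0.29, SE 0.10, adjusted p = 0.116).

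The sensor list gave 2 calls of 4, 1 of the 3 sensors and XBP1. EIF2AK3, the kinase PERK (ENSG00000172071, hg38 chromosome 2, 88556741 to 88627576, minus strand), had 392, 299.7 and 369.8 normalized counts with siNeg and 488, 404 and 440.1 with siCENPF. It had 481, 422 and 426 with siFOXM1 and 464, 439 and 434 with both siRNAs. EIF2AK3 rose by 0.33 (log2) with siCENPF (SE 0.089, adjusted p = 0.0274). Every siNeg library lay below every siCENPF library, and below every library of the other groups. The call was lost without siNeg 1 or 2, or without siCENPF 1, 2 or 3 (adjusted p up to 0.17), and its exons share 781 bases with AC104134.1 on the other strand (mean 105 normalized counts). XBP1 (ENSG00000100219, hg38 chromosome 22, 28794555 to 28800597, minus strand) had 1786, 997 and 1216 normalized counts with siNeg and 2306, 1306 and 1493 with siCENPF. Libraries of siFOXM1 had 1886, 1124 and 1383, and those of both siRNAs 1846, 1326 and 1414. XBP1 rose by 0.35 (log2) with siCENPF (SE 0.065, adjusted p = 0.00112). In each number siCENPF exceeded siNeg, and the call held in all 12 runs that left out a library (adjusted p at most 0.0182). ERN1 and ATF6 did not pass.

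Of the ER chaperone genes 2 of 13 passed. HSPA5 (ENSG00000044574, hg38 chromosome 9, 125234853 to 125241330, minus strand) had 30874, 14351 and 20177 normalized counts with siNeg and 35968, 18085 and 22294 with siCENPF. Its values were 28366, 15201 and 20442 with siFOXM1 and 29268, 16177 and 21163 with both siRNAs. HSPA5 rose by 0.23 (log2) with siCENPF (SE 0.051, adjusted p = 0.00548). Within each number siCENPF was the highest group, the groups overlapped between numbers, and the adjusted p was 0.0526 without siCENPF 1. DNAJB9 (ERdj4, a J-domain partner of HSPA5; ENSG00000128590, hg38 chromosome 7, 108569568 to 108574850, plus strand) had 407, 226 and 289 normalized counts with siNeg and 688, 337 and 340.2 with siCENPF. Values of 643, 446 and 469 with siFOXM1 and 715, 401 and 434 with both siRNAs followed. DNAJB9 rose by 0.52 (log2) with siCENPF (SE 0.10, adjusted p = 0.00192). In each number siNeg was the lowest group, and the call held in all 12 runs (adjusted p at most 0.0397). Exons of DNAJB9 share 183 bases with THAP5 on the other strand (mean 544 normalized counts). The other 11 ER chaperone genes had log2 changes from 0.02 (CANX) to 0.27 (CRELD2).

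**Figure D3:**
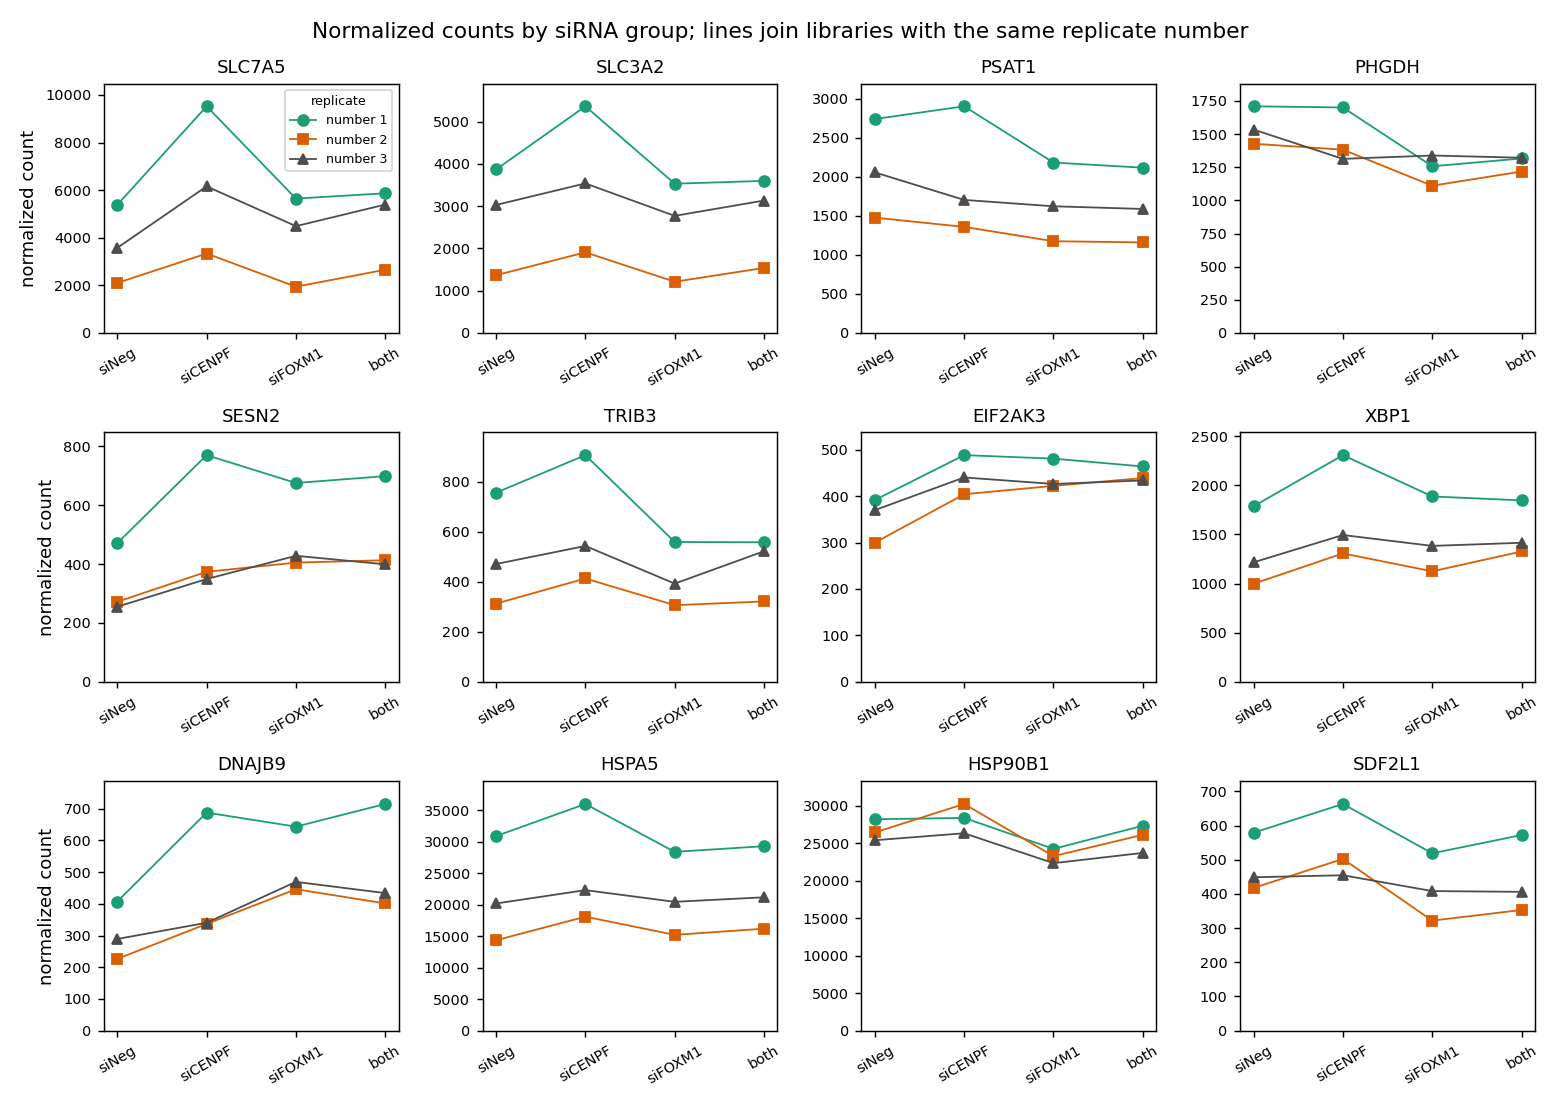
Normalized counts (vertical axis, from 0) of 12 members by siRNA group (horizontal axis), with lines joining the libraries of a replicate number. In the SLC7A5, SLC3A2 and HSPA5 panels each line peaks at siCENPF, in the SESN2 and DNAJB9 panels each line is lowest at siNeg, and the line of number 1 is the top one in all panels except PHGDH and HSP90B1.

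After siFOXM1, 5 members rose and 4 fell with the block, where 8.72% of all genes were called (4.48% rose and 4.23% fell). SESN2, EIF2AK3, DNAJB9, CALR and HYOU1 rose, and PSAT1, PHGDH, VLDLR and HSP90B1 fell. List medians were -0.04 for the amino acid genes, -0.03 for the factors, 0.00 for the sensor list and 0.10 for the ER chaperone genes. Within numbers 11 members were higher in all 3 pairs and 14 lower, against 21.6% and 22% of all genes. Without the block the adjusted p of the 9 ran from 0.337 to 0.923.

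The amino acid genes that fell both belong to serine synthesis. PHGDH (ENSG00000092621, hg38 chromosome 1, 119659798 to 119744215, plus strand), whose enzyme opens the pathway from a glycolytic intermediate, had 1709.7, 1427 and 1534 normalized counts with siNeg and 1701, 1383 and 1313 with siCENPF. In siFOXM1 libraries it had 1257, 1111 and 1339, and with both siRNAs 1316, 1218 and 1322. PHGDH fell by 0.33 (log2) with siFOXM1 (SE 0.07, adjusted p = 0.00236). All 3 siFOXM1 libraries lay below all 3 siNeg libraries. PSAT1 (ENSG00000135069, hg38 chromosome 9, 78297143 to 78330093, plus strand), the aminotransferase of the next step, had 2743, 1479 and 2059 normalized counts with siNeg and 2906, 1360.2 and 1706 with siCENPF. It had 2185, 1176 and 1624 with siFOXM1 and 2119, 1162 and 1590.3 with both siRNAs. PSAT1 fell by 0.33 (log2) with siFOXM1 (SE 0.063, adjusted p = 0.000799). The difference was nearly equal in the 3 numbers (-0.33, -0.33 and -0.34), although the groups overlapped between numbers. Both calls held in all 12 runs that left out a library (adjusted p at most 0.0373 and 0.013). PSPH, the phosphatase that ends the pathway, did not pass (log2 0.01, SE 0.081, adjusted p = 0.945). SLC7A5 (log2 0.09, SE 0.091, adjusted p = 0.61) and SLC3A2 (log2 -0.14, SE 0.064, adjusted p = 0.182) did not pass.

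SESN2 rose again. SESN2 rose by 0.61 (log2) with siFOXM1 (SE 0.092, adjusted p = 5.04e-05). Its siFOXM1 libraries exceeded siNeg in each number. VLDLR, a lipoprotein receptor whose gene ATF4 can induce, had 453, 384 and 346 normalized counts with siNeg and 432, 347 and 338 with siCENPF. Libraries of siFOXM1 had 335, 303 and 284, and those of both siRNAs 379, 344 and 373. VLDLR fell by 0.35 (log2) with siFOXM1 (SE 0.095, adjusted p = 0.0178). All siFOXM1 libraries lay below all siNeg libraries, but the call was lost without siNeg 1 or 2 or any siFOXM1 library (adjusted p up to 0.11), and 738 exon bases are shared with VLDLR-AS1 on the other strand (mean 74.5 normalized counts). EIF2AK3 also rose. EIF2AK3 rose by 0.33 (log2) with siFOXM1 (SE 0.089, adjusted p = 0.018). The call was lost without siNeg 2, siFOXM1 1 or siFOXM1 2 (adjusted p up to 0.116). ATF4 (log2 0.12, SE 0.058, adjusted p = 0.236), DDIT3 (log2 0.06, SE 0.15, adjusted p = 0.852) and TRIB3 (log2 -0.24, SE 0.10, adjusted p = 0.159) did not pass.

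Of the ER chaperone genes 3 of 13 rose and 1 fell. DNAJB9 had the largest change of the 42. DNAJB9 rose by 0.78 (log2) with siFOXM1 (SE 0.10, adjusted p = 7.01e-06). All 3 siFOXM1 libraries (446 to 643) lay above all 3 siNeg libraries (226 to 407), and the call held in all 12 runs. CALR had 25685, 20715 and 22826 normalized counts with siNeg and 26591, 24208 and 24898 with siCENPF. Its values were 26951, 24538 and 25059 with siFOXM1 and 26309.8, 23209 and 25499 with both siRNAs. CALR rose by 0.15 (log2) with siFOXM1 (SE 0.046, adjusted p = 0.0397). HYOU1, an HSP70-like chaperone of the ER, had 6242, 4592 and 4972 normalized counts with siNeg and 6819, 5033 and 5608 with siCENPF. Values of 6679, 5269.8 and 5808 with siFOXM1 and 6239, 5160.2 and 5755 with both siRNAs followed. HYOU1 rose by 0.17 (log2) with siFOXM1 (SE 0.049, adjusted p = 0.0264). Within each number siFOXM1 exceeded siNeg in both genes, the groups overlapped, and the call was lost in 7 of the 12 runs for CALR (siNeg 2 or 3, siCENPF 3, any siFOXM1 library or siCENPF+siFOXM1 2; adjusted p up to 0.255) and in 5 for HYOU1 (siNeg 2 or 3 or any siFOXM1 library; up to 0.142). CALR and HYOU1 exons share 270 and 666 bases with AC092069.1 and AP003392.3 on the other strand (means of 1622 and 758 normalized counts).

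HSP90B1 went down, unlike the other ER calls. It had 28224, 26461 and 25425 normalized counts with siNeg and 28411, 30267 and 26356 with siCENPF. In siFOXM1 libraries it had 24272, 23297 and 22364, and with both siRNAs 27361, 26150.1 and 23732. HSP90B1 fell by 0.20 (log2) with siFOXM1 (SE 0.046, adjusted p = 0.00604). All 3 siFOXM1 libraries lay below all 3 siNeg libraries. The call was lost without siNeg 1 or siFOXM1 2 (adjusted p up to 0.0769). HSPA5 did not pass (log2 -0.01, SE 0.051, adjusted p = 0.961), and neither did HERPUD1 (log2 0.03, SE 0.09, adjusted p = 0.895).

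**Figure D4:**
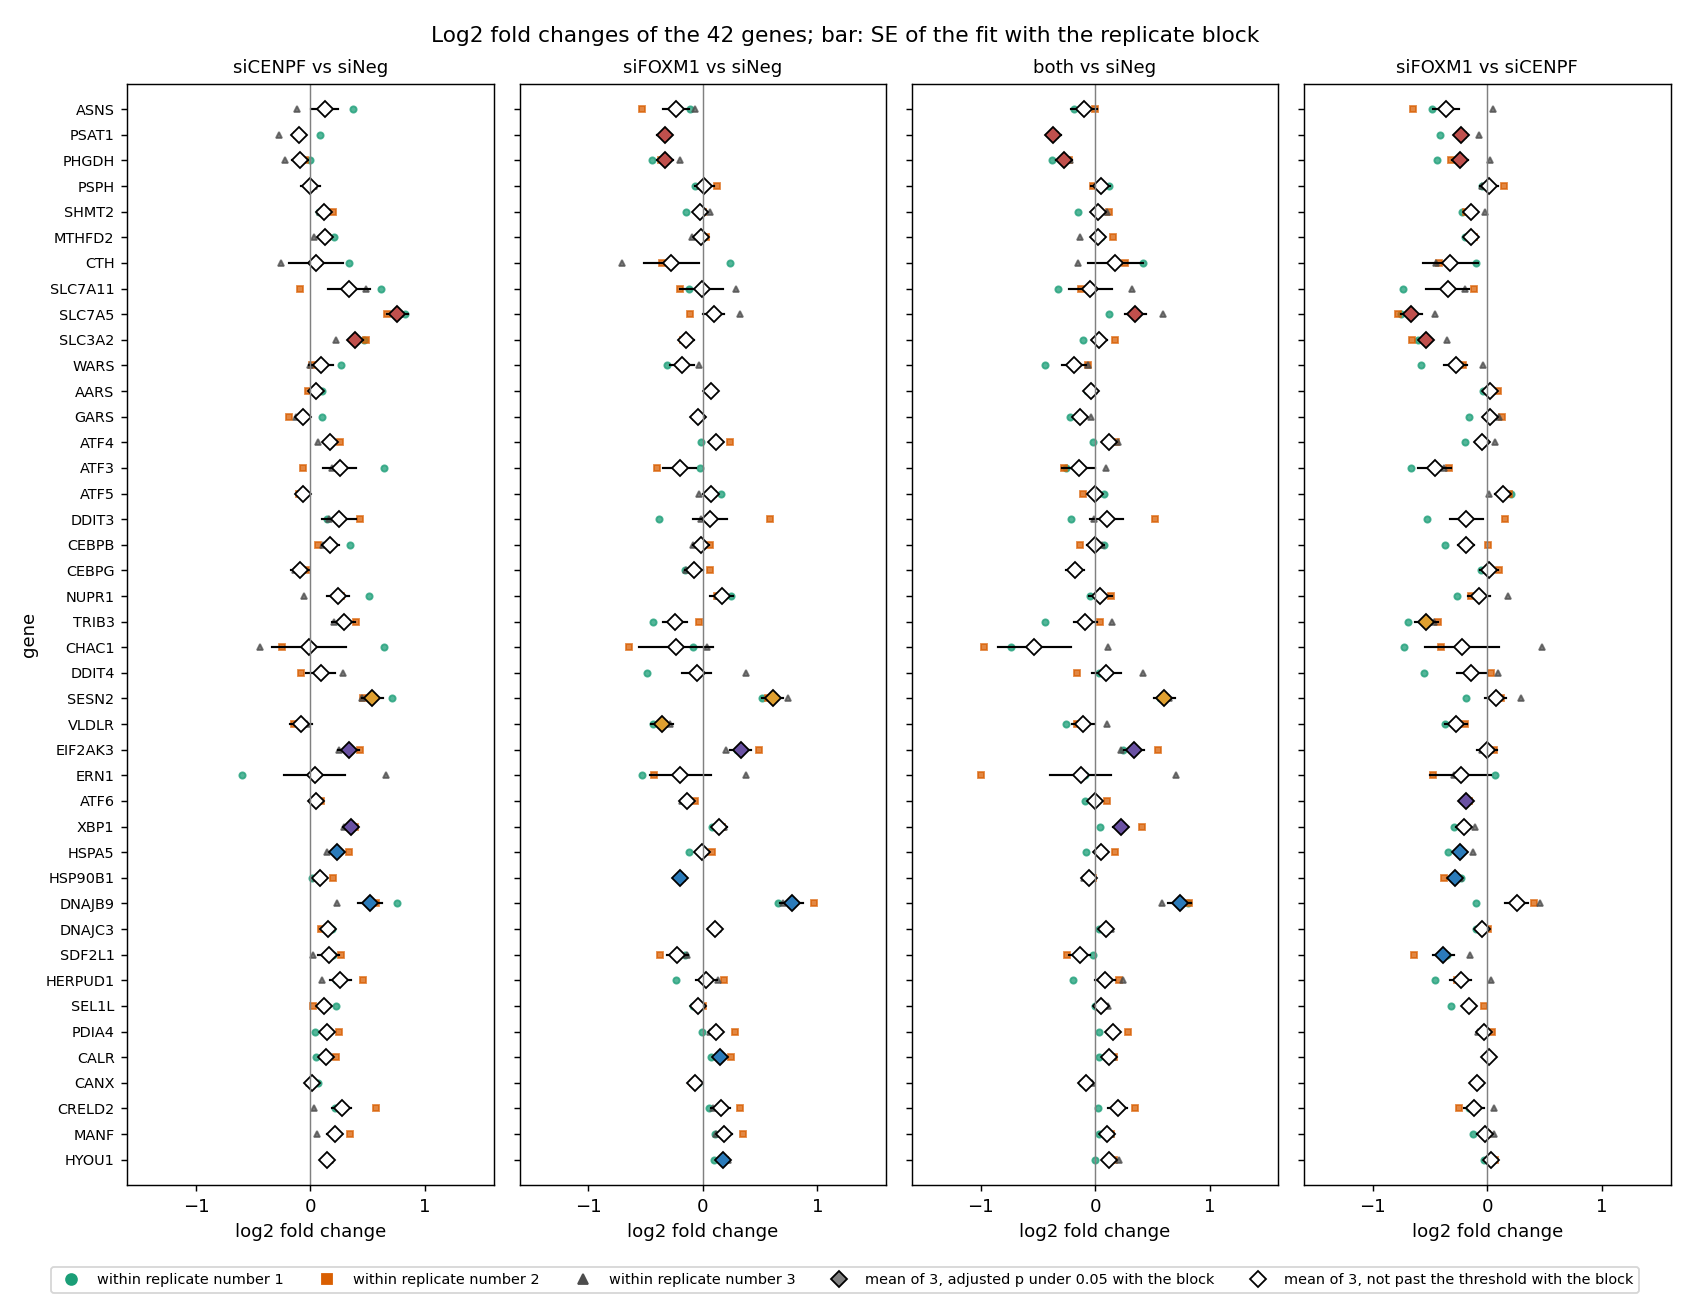
Log2 fold changes (horizontal axis) of the 42 genes (vertical axis) in 4 comparisons. Small symbols are the difference within each replicate number, diamonds the mean of the 3 with the SE of the fit with the replicate block, and filled diamonds passed an adjusted p of 0.05 with the block: 7, 9, 7 and 9 genes from left to right.

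With both siRNAs, 5 members rose and 2 fell with the block, where 7.9% of all genes were called (4.18% rose and 3.72% fell). SLC7A5, SESN2, EIF2AK3, XBP1 and DNAJB9 rose, and PSAT1 and PHGDH fell. List medians were -0.04, 0.00, 0.11 and 0.09 for the amino acid genes, factors, sensor list and ER chaperone genes. Within numbers 11 members were higher in all 3 pairs and 9 lower, against 20.2% and 21.3% of all genes. Without the block the adjusted p of the 7 ran from 0.445 to 0.966.

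PSAT1 fell by 0.36 (log2) with both siRNAs (SE 0.063, adjusted p = 0.000366). PSAT1 was lower within each number (-0.37, -0.35 and -0.37), and its call held in all 12 runs. PHGDH fell by 0.27 (log2) with both siRNAs (SE 0.07, adjusted p = 0.0139). PHGDH libraries given both siRNAs lay below all siNeg libraries, but the call was lost without siNeg 1 or siCENPF+siFOXM1 1 (adjusted p up to 0.124). SLC7A5 rose by 0.35 (log2) with both siRNAs (SE 0.091, adjusted p = 0.0326). It was lost in 6 of the 12 runs, without any siNeg library, siCENPF 2 or siCENPF+siFOXM1 2 or 3 (adjusted p up to 0.136). SESN2 rose by 0.60 (log2) with both siRNAs (SE 0.092, adjusted p = 7.21e-05). DNAJB9 rose by 0.74 (log2) with both siRNAs (SE 0.10, adjusted p = 1.73e-05). Both held in all 12 runs. EIF2AK3 rose by 0.34 (log2) with both siRNAs (SE 0.089, adjusted p = 0.016). It was lost without siNeg 2 or siCENPF+siFOXM1 2 (up to 0.129). XBP1 rose by 0.23 (log2) with both siRNAs (SE 0.065, adjusted p = 0.0317). It was lost without siNeg 2 or 3, or siCENPF+siFOXM1 2 or 3 (up to 0.287).

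The 3 comparisons share the siNeg libraries, so their values are only set side by side. SESN2 rose by 0.54, 0.61 and 0.60 with siCENPF, siFOXM1 and both siRNAs, EIF2AK3 by 0.33, 0.33 and 0.34, and DNAJB9 by 0.52, 0.78 and 0.74. PSAT1 stood at -0.10, -0.33 and -0.36 and SLC7A5 at 0.76, 0.09 and 0.35 in the same order.

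The single knockdowns were next compared directly, siFOXM1 against siCENPF. With the block 9 members were lower with siFOXM1 and 0 higher, where 7.57% of all genes were called (4.23% lower and 3.35% higher). Within numbers 18 members were lower in all 3 pairs and 2 higher, against 21% and 19.7% of all genes. List medians were -0.24 for the amino acid genes, -0.16 for the factors, -0.20 for the sensor list and -0.09 for the ER chaperone genes, against 0.00 over all genes. The medians of the amino acid genes (-0.41, -0.21 and -0.05 in numbers 1, 2 and 3) and of the factors (-0.37, -0.01 and 0.00) were lowest in number 1, and that of the factors was near 0 in the other numbers. Without the block the adjusted p of the 9 ran from 0.341 to 0.981.

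Of the amino acid genes 4 of 13 were lower. SLC7A5 differed by -0.66 (log2) between siFOXM1 and siCENPF (SE 0.091, adjusted p = 0.000587). SLC3A2 differed by -0.54 (log2) between siFOXM1 and siCENPF (SE 0.064, adjusted p = 2.54e-06). Both transporter chains were lower with siFOXM1 in each number, and both calls held in all 12 runs. PSAT1 differed by -0.23 (log2) between siFOXM1 and siCENPF (SE 0.063, adjusted p = 0.0229). PHGDH differed by -0.24 (log2) between siFOXM1 and siCENPF (SE 0.07, adjusted p = 0.0328). Each of the serine synthesis calls was lost in 4 runs: without siCENPF 1 or any siFOXM1 library for PSAT1 (adjusted p up to 0.239), and without siCENPF 1 or 2 or siFOXM1 1 or 2 for PHGDH (up to 0.235). In number 3 PHGDH was 0.03 higher with siFOXM1.

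TRIB3 differed by -0.53 (log2) between siFOXM1 and siCENPF (SE 0.10, adjusted p = 0.00128). TRIB3 was the 1 factor called of 12, and the call held in all 12 runs. ATF6, the sensor cleaved in the Golgi to release a transcription factor, had 2015, 1791 and 1821 normalized counts with siNeg and 2051, 1908 and 1849.5 with siCENPF. It had 1790.2, 1704 and 1604 with siFOXM1 and 1896, 1931 and 1797 with both siRNAs. ATF6 differed by -0.19 (log2) between siFOXM1 and siCENPF (SE 0.054, adjusted p = 0.0322). All 3 siFOXM1 libraries lay below all 3 siCENPF libraries, but the call was lost without any of the 6 libraries compared (adjusted p up to 0.152). HSP90B1 differed by -0.28 (log2) between siFOXM1 and siCENPF (SE 0.046, adjusted p = 0.000194). Its siFOXM1 libraries lay below all siCENPF libraries, and the call held in all 12 runs. HSPA5 differed by -0.24 (log2) between siFOXM1 and siCENPF (SE 0.051, adjusted p = 0.00317). It was lost without siFOXM1 1 (adjusted p = 0.0511). SDF2L1, a cofactor of ER J-domain proteins, had 579, 417 and 449 normalized counts with siNeg and 663, 502 and 455 with siCENPF. Libraries of siFOXM1 had 519, 322 and 408, and those of both siRNAs 572, 353 and 406. SDF2L1 differed by -0.38 (log2) between siFOXM1 and siCENPF (SE 0.091, adjusted p = 0.00879). The number 2 difference was the largest (-0.64), and the call was lost without siCENPF 2 or siFOXM1 2 (up to 0.112).

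Both siRNAs together were compared with each alone. The CENPF transcript itself was higher by 0.55 (log2) with both siRNAs than with siCENPF (SE 0.074, adjusted p = 0.000188). Its part in the differences below was not tested. Against siCENPF, 3 members were lower with the block, and 0 higher, where 1.46% of all genes were called (1.03% lower and 0.431% higher). PSAT1 differed by -0.26 (log2) between both siRNAs and siCENPF (SE 0.063, adjusted p = 0.0283). SLC7A5 differed by -0.41 (log2) between both siRNAs and siCENPF (SE 0.091, adjusted p = 0.0494). SLC3A2 differed by -0.35 (log2) between both siRNAs and siCENPF (SE 0.064, adjusted p = 0.00205). The calls were lost in 4, 7 and 1 of the 12 runs, with adjusted p up to 0.313, 0.28 and 0.0758: without siCENPF 1 or any library of both siRNAs for PSAT1, without siNeg 1 or 2, siCENPF 1 or 2, siFOXM1 1 or siCENPF+siFOXM1 1 or 2 for SLC7A5, and without siCENPF+siFOXM1 1 for SLC3A2. Against siFOXM1, 0 members were called with or without the block (0.296% of all genes with it, 0.135% higher and 0.162% lower), and 0 passed an unadjusted p under 0.05 in the fit without it.

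The interaction asks whether the change with both siRNAs differs from the sum of the single changes. CENPF, which is not a member, had an interaction of 0.70 (log2, SE 0.10, adjusted p = 0.00112). With the block 1 member was called, SESN2 (log2 -0.55, SE 0.13, adjusted p = 0.0404), where 0.841% of all genes were called (0.734% below 0 and 0.108% above). It was below 0 within each number (-0.66, -0.43 and -0.55), since SESN2 rose by 0.60 with both siRNAs and by 0.54 and 0.61 with each alone. The call was lost in 8 of the 12 runs that left out a library (siNeg 1 or 3, siCENPF 1, siFOXM1 2 or 3, or any library of both siRNAs; adjusted p up to 0.226). In edgeR the fit with the block called SESN2 (adjusted p = 0.0425) and SLC7A5 (log2 -0.51, adjusted p = 0.0257). The list medians lay below 0 in all 4 lists, from -0.16 (ER chaperone genes and factors) to -0.07 (amino acid genes), against 0.00 over all genes, and 12 of 13 ER chaperone genes lay below 0, against 49.7% of all genes. Within numbers the medians of the amino acid genes and factors were not of 1 sign: the first was 0.10 in number 2 and the second 0.07 in number 3. Those of the ER chaperone genes (-0.18, -0.24 and -0.03) and of the sensor list (-0.16, -0.26 and -0.24) lay below 0 in each number.

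The amino acid genes were then set against the ER chaperone genes by the difference of their list medians, which has no test. The difference was -0.05 (SD 0.12 over 3 numbers) with siCENPF, -0.15 (SD 0.14) with siFOXM1 and -0.13 (SD 0.017) with both siRNAs, all relative to siNeg. Each difference uses fold changes averaged over the numbers, while the SD is that of the differences taken within each number. The SD is therefore not an error of the value beside it, and with both siRNAs that value lay outside all 3 within-number differences. With both siRNAs it was -0.15, -0.18 and -0.18 in numbers 1, 2 and 3, and with siFOXM1 -0.10, -0.36 and -0.13. Leaving out 1 library moved these values: with siFOXM1 from -0.38 (without siNeg 2) to -0.07 (without siNeg 3), and with both siRNAs from -0.33 (without siNeg 2) to -0.02 (without siNeg 3). With siCENPF it ran from -0.23 (without siCENPF 1) to 0.00 (without siCENPF 2). The comparison of siFOXM1 with siCENPF gave -0.16 (SD 0.14), and 0.04 without siCENPF 1. Both siRNAs gave -0.11 (SD 0.10) against siCENPF and 0.00 (SD 0.10) against siFOXM1, and the interaction gave 0.10 (SD 0.22). With siFOXM1 the amino acid list held 2 falls and 0 rises with the block, and the ER list 3 rises and 1 fall. With siCENPF each of these lists held 2 rises and 0 falls. With both siRNAs the amino acid list held 1 rise and 2 falls, and the ER list 1 rise and 0 falls. The part of the called genes in the medians was not tested.

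Genes of neighbouring pathways were read from lists of the same kind. Without the block, limma and edgeR called 1 of 25 other ER folding, translocation and degradation genes against siNeg in each comparison, CREB3L2, a membrane-bound factor of the ATF6 kind: it rose by 0.63 (SE 0.077), 0.53 and 0.61 with siCENPF, siFOXM1 and both siRNAs (limma adjusted p = 0.00253, 0.00567 and 0.00227). DESeq2 called it too, and SEC24D with siCENPF (adjusted p = 0.0356), siFOXM1 (0.0347) and both siRNAs (0.0266). Of 12 cytosolic heat shock genes each of the 3 tools called 1 in each comparison, HSPB1 (HSP27), which rose by 0.66, 0.68 and 0.63 (limma adjusted p = 0.0245, 0.0137 and 0.0244). With the block CREB3L2 and HSPB1 also had interactions of -0.56 and -0.71 (adjusted p = 0.000184 and 7.05e-06). DESeq2 without the block called CREB3L2 and HSPB1 for the interaction too. In these lists limma with the block also called SEC24D, STC2 and JDP2 for it, but edgeR with the block did not call SEC24D. These too lay below 0. Most interaction calls over all genes lay on that side (0.734% of genes below 0 and 0.108% above). Without the block limma and edgeR called 0 in the remaining lists against siNeg: 13 genes of eIF2, its kinases and phosphatase, 17 other cytosolic tRNA synthetases, 16 other amino acid and one-carbon genes, 8 mitochondrial chaperones and proteases, and 8 NRF2 targets, a set that shares SLC7A11 with ATF4 as a textbook target. DESeq2 called 1 gene in these lists, JDP2 with siCENPF (adjusted p = 0.00586).

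The amino acid and one-carbon list also holds genes of other roles, among them JDP2, STC2 and VEGFA, so its counts are not counts of metabolic genes alone. With the block it gave 3 rises and 0 falls with siCENPF, 5 and 2 with siFOXM1 and 4 and 1 with both siRNAs, where 4.52%, 8.72% and 7.9% of all genes were called. JDP2, a repressor of the AP-1 family, rose by 1.13, 0.79 and 0.85, STC2, a secreted glycoprotein induced by ER stress, by 0.36, 0.40 and 0.39, and PYCR1, the last enzyme of proline synthesis, by 0.32, 0.23 and 0.32 (adjusted p at most 0.00906). MTHFD1, of cytosolic folate metabolism, fell by 0.21 with siFOXM1 and 0.23 with both (adjusted p = 0.013 and 0.00494). The other ER list gave 3, 4 and 4 rises and 0, 2 and 0 falls. SEC24D, a coat protein of ER export, rose by 0.33, 0.32 and 0.33, (adjusted p at most 0.000333), and MBTPS1, a protease that cleaves ATF6, by 0.20, 0.23 and 0.20 (at most 0.0339). EDEM3 and HSPA13 fell with siFOXM1, by 0.29 and 0.30 (adjusted p = 0.00273 and 0.000804). The 17 other tRNA synthetases gave 1 call against siNeg, DARS, at -0.20 with siFOXM1 (adjusted p = 0.0463). The eIF2 list gave EIF2B5 with siCENPF (0.28, adjusted p = 0.0162) and EIF2AK4, the kinase GCN2, with siFOXM1 (0.17, adjusted p = 0.0401). Of the 12 heat shock genes HSPB1 rose in each comparison, HSP90AB1 fell by 0.18 with siCENPF and 0.24 with both siRNAs, and DNAJA1 by 0.28 with siFOXM1 and 0.21 with both (adjusted p at most 0.0307). DNAJA3, a mitochondrial J-domain protein, fell by 0.33 with siFOXM1 and 0.24 with both (adjusted p = 0.000883 and 0.0185). Of the 8 NRF2 targets NQO1, a quinone reductase, rose by 0.21 with siCENPF (adjusted p = 0.0206), TXNRD1, a thioredoxin reductase, fell by 0.20 with siFOXM1 (adjusted p = 0.0215), and 0 were called with both. Between siFOXM1 and siCENPF all 8 lay below 0, against 50.2% of all genes, and 3 were called, NQO1 (-0.34), GCLM (-0.26) and TXNRD1 (-0.22), with adjusted p at most 0.0242, where 7.57% of all genes were called.

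Counting of shared sequence limits some members. Opposite-strand exons of a gene in the count table covered at least 100 bases of 16 of the 42 members, and reads of such partners cannot be told apart from the member's without strand. Pseudogenes named after 10 members, among them SLC7A5, PSAT1, ASNS, ATF4 and XBP1, are in the gene annotation, and 0 of these pseudogenes are in the normalized count table.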

How the data were processed

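PolyA RNA of 12 libraries was read as the authors deposited it. Per the submitters' processing notes, bcl2fastq, Trimmomatic, TopHat and edgeR were used with the hg38 genome; the sources used here do not give versions, the strand setting or the normalization method. The main values are the authors' normalized counts, a signal on a count scale per gene and library. The authors also deposited FPKM per library, and edgeR tables that give, per the file headers, CPM in each library beside a log2 fold change, a likelihood ratio (a score) and a p-value; those last 3 are not used here. Gene symbols and positions came from those tables.

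Groups and replicate numbers came from the labels. limma (3.58.1, R 4.3.3) with trend and robust moderation was fitted to log2(normalized count + 1) of 14857 genes (10 or more normalized counts in 3 or more libraries), with 4 group means over all 12 libraries. Tests were two-sided, adjusted by Benjamini-Hochberg over all genes in each comparison and called under 0.05. Fold changes on this scale understate the change of low genes. The same fit with replicate number as a block was run because same-numbered libraries deviated together in all 18 pairs (correlation 0.272 to 0.639; libraries with different numbers -0.51 to 0.0248). Whole reads were recovered from the deposited CPM (100% of values within 0.01 of a read) and tested with edgeR (4.0.16, TMM, quasi-likelihood) and DESeq2 (1.42.0). Further alternatives were log2(FPKM + 0.5), a pseudocount of 10, no filter, median-of-ratios rescaling and leaving out each library. Scripts were tested on simulated data.

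Promoters came from RefSeq (GRCh38.p14) and exon overlaps from GENCODE. All 42 members may be named, and other genes come from lists with the smallest adjusted p named. Members and lists were chosen with earlier results of these data known, so a list is described by counts and medians with no test of its own, and no table column was left without a sample.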

Additional observations from a re-analysis of the deposited data

Results flagged for a closer look

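For SESN2 the joint change departed from the added single changes by -0.55 (log2, adjusted p = 0.0404 in limma with the replicate block), and lay below 0 within each of the 3 replicate numbers. The call was lost in 8 of the 12 runs that left out a library (adjusted p up to 0.226), and limma without the block called 0 interactions over all genes. For 3 members the effect of an siRNA had opposite signs in the absence and presence of the other siRNA in every replicate number. The share of all genes with that pattern was not computed, so the count cannot be called many or few. AARS, an alanyl-tRNA synthetase gene, was above siNeg with siFOXM1 alone and below siCENPF with both siRNAs, a difference of -0.16 (log2, adjusted p = 0.537 with the block). VLDLR was below siNeg with siCENPF alone and above siFOXM1 with both, a difference of 0.33 (adjusted p = 0.439). HYOU1 was above siNeg with siCENPF alone and below siFOXM1 with both, a difference of -0.19 (adjusted p = 0.363). None of these 3 differences passed the threshold with the block.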

How the results depend on the processing

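Without the replicate block 0 of 42 members were called in each of the 7 comparisons between groups, under all 6 other settings and the 12 runs that left out a library. With the replicate block, limma called 7, 9 and 7 members with siCENPF, siFOXM1 and both siRNAs against siNeg, 9 for siFOXM1 against siCENPF, 3 and 0 for both siRNAs against siCENPF and siFOXM1, and 1 for the interaction. The paired fit therefore decides every call. The runs that follow were chosen after seeing the data. In edgeR with the block the interaction gave 2 members. With 1 library left out and the block kept, the counts ran from 5 to 11 with siCENPF (11 without siCENPF 3), 4 to 10 with siFOXM1 (5 without siNeg 2 or siFOXM1 1, 4 without siFOXM1 2), and 4 to 7 with both siRNAs (4 without siNeg 2 or siCENPF+siFOXM1 2). They ran from 5 to 13 for siFOXM1 against siCENPF (5 without siFOXM1 1 or 2), 0 to 4 for both siRNAs against siCENPF (1 without siCENPF 1 or siCENPF+siFOXM1 2, 0 without siCENPF+siFOXM1 1), 0 to 1 against siFOXM1 (1 without siCENPF+siFOXM1 1) and 0 to 2 for the interaction (0 without siNeg 1, siCENPF 1, siFOXM1 3 or siCENPF+siFOXM1 1 or 2, and 2 without siCENPF 3 or siFOXM1 1). Calls over all 14857 genes also changed in such runs. With siCENPF they numbered 413, 516 and 551 without siNeg 1, 2 and 3, against 671 with all libraries. With siFOXM1 they numbered 872, 1343 and 781 in the same runs, against 1295. The cause was not tested.

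Calls by replicate number ran from 33 to 38 members under other settings and from 35 to 39 with a library left out. Over all genes they ran from 5423 of 14069 (FPKM) to 6917 of 14857 (pseudocount of 10) under other settings. With a library left out they ran from 5918 to 6807 of 14857 genes. The amino acid median minus the ER chaperone median ran, with a library left out, from -0.23 to 0.0039 with siCENPF, -0.38 to -0.067 with siFOXM1, -0.33 to -0.017 with both siRNAs, -0.32 to 0.039 for siFOXM1 against siCENPF, -0.17 to -0.022 and -0.11 to 0.093 for both siRNAs against siCENPF and siFOXM1, and 0.0075 to 0.27 for the interaction. Depth limits the lowest members: CTH and ERN1 had medians of 41.0 and 59.4 normalized counts, and CHAC1 had 11.5 in its lowest library.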
